A study of Mus musculus with 7 samples.

Results

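B cell and germinal center memory genes are genes of the B lineage and the germinal center that a pluripotent cell is not thought to need. The set held 52 named mouse genes, and each of the 52 symbols matched 1 row of a table of 54838 genes. They were read as a record of the B lineage in induced pluripotent stem cell (iPSC) colonies. Not all of them mark the sorted donor cells: Rag1, Rag2 and Il7r are early lymphoid genes, and the donor cells were sorted as CD38-. The series holds no library of the donor B cells, so loss of donor RNA was not measured. RNA from 7 mouse cultures was sequenced. V6.5, an embryonic stem cell (ESC) line of the mouse, gave 1 library and served as reference. The other 6 libraries were iPSC colonies, with 3 colonies titled GC-iPSC (GC colonies) and 3 titled M-iPSC (M colonies). Male mice had received sheep red blood cells (SRBC) 9 days earlier, and splenic B cells were sorted as B220+ CD38- Fas+. GC colonies came from that bulk population. M is not spelled out in the titles and is read here as the Myc-GFP sort, the only other source in the series design, a reporter sort for B cells that T follicular helper cells have activated. Both sources spent 6 days with cytokines on fibroblast feeders, 10 days in doxycycline (Dox) and 4 days without it. Each colony library is 1 picked clone, passaged once on gelatin, with a 45 min pre-plating step against carried-over feeder cells. All 7 cultures were kept in serum with LIF. The labels give no genotype, donor mouse, age, batch or date for a colony, so source and donor cannot be told apart, and p-values measure only the spread among these colonies.

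B cells carry an antigen receptor made of immunoglobulin chains and the Cd79a and Cd79b signalling chains. The factors Ebf1 and Pax5 switch on that program and hold it in place. In a germinal center, B cells use Bcl6 to proliferate and mutate their antibody genes, then present antigen on MHC class II and compete for CD40 signals from T follicular helper cells. Reprogramming to pluripotency is expected to close these genes, and residual RNA of donor cell genes in young iPSC colonies is known as transcriptional memory.

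Libraries held 31139508 to 35728921 counts. Levels are counts per 1000000 (CPM), scaled by TMM, a factor that corrects for library composition. Because 3 counts is the most that a count of 0 allows, the floor was 0.0832 CPM in GC colony 1 and 0.101 CPM in ESC; it covers counting error only. Of 61 member counts between 1 and 9, 53 (86.9%) were even, against 71.8% of counts of 1 to 9 and 50.3% of counts of 1000 or more over all genes, so 2 counts may be the 2 mates of 1 read pair, which was not tested. Pluripotency genes were abundant in every library: the 8 markers summed to 7198 CPM in ESC and to 5178 to 5634 CPM in the colonies. M colonies 2 and 3 stood apart, with 0 counts over 8 Y-linked genes, against 3840 to 4804 in the other colonies and 762 in ESC. The donor mice were male, and the reason for these counts of 0 was not tested. The labels do not say whether these 2 colonies share an origin, so they may not be independent. Results are therefore also given without M colonies 2 and 3 where that ends a call. As for other cell types, 18 fibroblast markers summed to 734 CPM in ESC, 1250 to 1350 CPM in GC colonies and 1241 to 1585 CPM in M colonies. The sum over 12 myeloid markers was 6.10 CPM in ESC, 9.69 to 12.5 CPM in GC colonies and 14.0 to 19.9 CPM in M colonies, with Elane at 0 in all 7. The 8 T cell markers summed to 20.9 to 33.5 CPM, most of it Lck (31.1 CPM in ESC and 19.0 to 27.7 CPM in the colonies). The 6 endothelial markers summed to 153 CPM in ESC, 122 to 128 CPM in GC colonies and 81.0 to 94.4 CPM in M colonies. Most of that sum was Pecam1 (140 CPM in ESC), which with Vwf fell in M against GC colonies, by 0.49 and 1.11 on the log2 scale (edgeR adjusted p = 0.00328 and 6.94e-04), the direction in which the members Cd37 and Icam1 also passed. In M against GC colonies Cdh5 (-0.14) and Tek (-0.26) were lower and Kdr (0.14) and Emcn (0.57) higher on the log2 scale, without passing. Against ESC, Cdh5, Kdr and Tek rose in the colonies. The part of endothelial cells in the member results was not tested.

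Members were first split by level. Of the 52, 13 were silent (at most 3 counts in every library), 15 were present only as traces (under 1 CPM in every library), 19 were expressed in ESC at 1 CPM or more, and 5 reached 1 CPM in at least 1 colony and not in ESC. Of the 46 protein-coding members, 41.3% were expressed in ESC, against 58.1% of all 21998 protein-coding genes in the table. The silent share was 21.7% against 22.0%, the trace share 26.1% against 15.5%, and the share at 1 CPM in a colony only 10.9% (5 members) against 4.40%. Most of the members with measurable RNA were thus genes that the ESC line, which never was a B cell, also transcribed. The members nearest to 1 CPM in ESC were Fas and H2-Eb1 (0.938 CPM each) below it and Cd40 (1.71 CPM) above it.

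**Figure D1:**
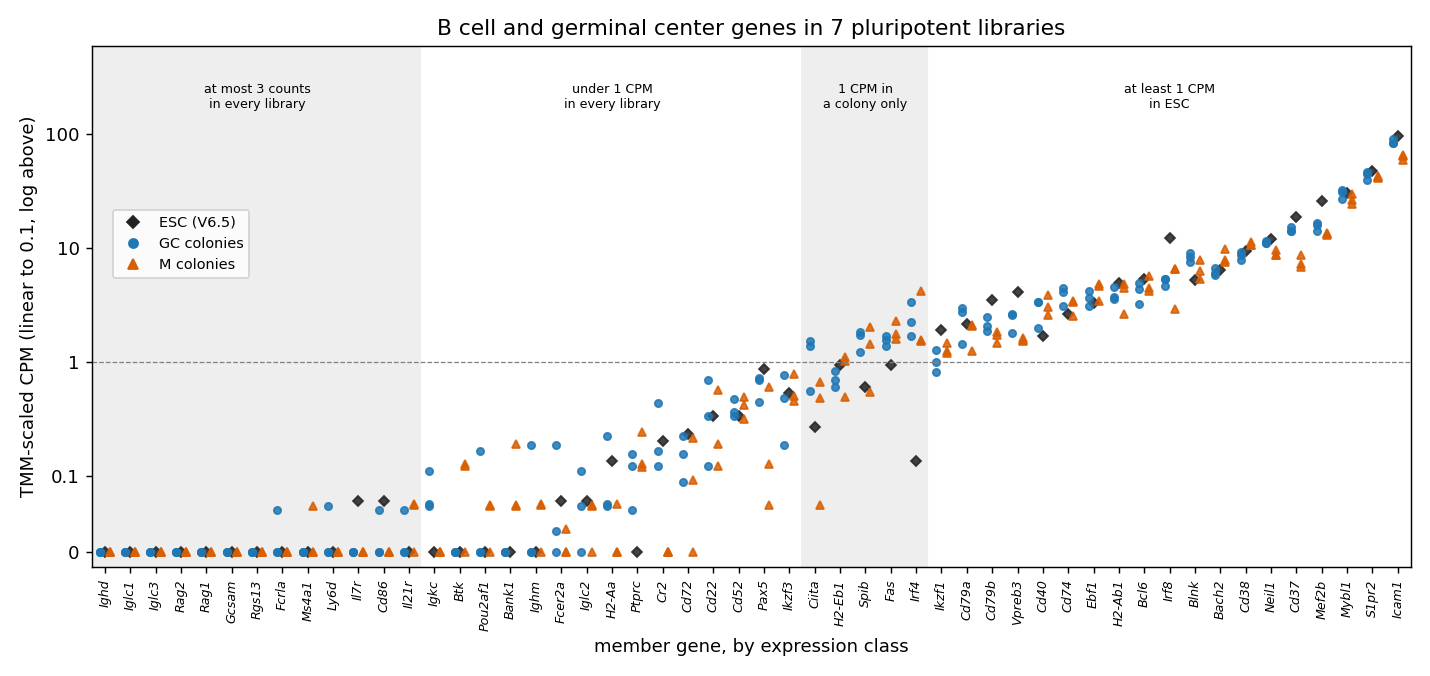
TMM-scaled CPM of each of the 52 members (y axis, linear to 0.1 and logarithmic above) in the ESC library (black diamonds), the 3 GC colonies (blue circles) and the 3 M colonies (orange triangles), by expression class. The dashed line is 1 CPM; 28 members lie below it in all 7 libraries, and Irf4 shows the widest gap between the colonies and ESC.

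Immunoglobulin constant genes and CD20 were at or near 0, whereas other B cell genes such as Cd79a, Cd79b and Ebf1 were low but measurable in all 7 libraries. Ms4a1, which encodes CD20, had 2 counts in M colony 2 and 0 in the other 6 libraries. The 6 immunoglobulin constant genes (Ighm, Ighd, Igkc, Iglc1, Iglc2, Iglc3) summed to 2 counts in ESC, to 8, 4 and 8 counts in GC colonies 1 to 3, and to 4, 2 and 2 counts in M colonies 1 to 3. Ighm, the heavy chain of IgM, had 0 counts in ESC, 0, 0 and 6 in GC colonies and 2, 0 and 2 in M colonies. Igkc, the kappa light chain, had 0 counts in ESC, 4, 2 and 2 in GC colonies and 0 in each M colony. A count of 0 allows up to 3, and neither comparison tested Ighm or Igkc. The sums over the 6 constant genes overlap between GC and M colonies, and M colonies 2 and 3 had the same sum as ESC.

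The lymphoid genes Rag1 and Rag2, which cut antibody genes during their assembly, and the germinal center genes Gcsam and Rgs13 had 0 counts in all 7 libraries, as did Ighd, Iglc1 and Iglc3. The remaining silent members Fcrla, Ly6d, Il7r, Il21r and Cd86 never passed 2 counts. Il7r, the receptor for interleukin 7, was seen only in ESC, and Cd86, a ligand for T cell costimulation, in ESC and GC colony 1, with 2 counts each. The silent class summed to 4 counts in ESC and to 0 to 6 counts in a colony.

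Among the 15 trace members, summed levels were 2.78 CPM in ESC, 2.97, 2.22 and 3.29 CPM in GC colonies 1 to 3, and 1.96, 2.69 and 1.81 CPM in M colonies 1 to 3. The ESC value lies inside the range of the colonies. Pax5, the factor that commits cells to the B lineage, was highest in ESC at 0.871 CPM. It was 0.444, 0.731 and 0.690 CPM in GC colonies and 0.0611, 0.599 and 0.127 CPM in M colonies, where M colony 2 overlapped the GC range. Ptprc, which encodes the leukocyte antigen CD45 (B220 in B cells), had 0 counts in ESC, 2, 4 and 5 in GC colonies and 8, 4 and 4 in M colonies. The count of 0 in ESC allows up to 3, and neither comparison tested Ptprc. Btk, a kinase of receptor signalling, and Bank1, a scaffold, were seen in M colonies only, with 4, 0 and 4 counts and 2, 2 and 6 counts. Cr2, the complement receptor CD21, went the other way, with 6 counts in ESC, 6, 4 and 14 in GC colonies and 0 in each M colony. For M against GC colonies Cr2 fell below the filter on low counts, and in an edgeR fit with no such filter its adjusted p was 0.0271. Cd72 shares 41.6% of its exon bases with Tesk1 on the opposite strand, so its 0 to 8 counts are uncertain. The other trace members were Cd22, Fcer2a, H2-Aa, Pou2af1, Ikzf3 and Cd52, all between 0 and 0.778 CPM.

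Among members that were expressed, levels per length of merged exons (RPKM, CPM per kilobase) put germinal center and surface genes on top. In ESC the highest was Icam1, an adhesion protein that steadies contact with T cells, at 22.5 RPKM. Next came Mef2b, a transcription factor of the germinal center, at 18.6 RPKM. Neil1, a DNA repair glycosylase, S1pr2, a receptor that confines B cells to the germinal center, Mybl1, a Myb family factor, and Cd37, a leukocyte tetraspanin, followed at 6.39, 5.97, 5.64 and 5.36 RPKM. With 1 ESC library, neighbours in that order cannot be separated beyond their spread. In GC colonies Neil1 (6.04 ± 0.18 RPKM), Mybl1 (5.61 ± 0.55 RPKM) and S1pr2 (5.49 ± 0.45 RPKM; SD, n = 3 each) lay within about 1 SD of one another. Bcl6 stood at 0.800 RPKM in ESC, 0.623 ± 0.126 RPKM in GC colonies and 0.714 ± 0.118 RPKM in M colonies (SD, n = 3 each).

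The receptor chains that were measurable were low. Cd79a was 2.18 CPM in ESC, 3.00, 2.77 and 1.44 CPM in GC colonies and 2.08, 1.26 and 2.12 CPM in M colonies. GC colonies lay on either side of ESC, and M colonies were all below it, within the range of the GC colonies except for M colony 2. Cd79b was 3.48 CPM in ESC, 1.89, 2.07 and 2.48 CPM in GC colonies and 1.47, 1.74 and 1.84 CPM in M colonies, each colony below ESC. Ebf1 was 3.28 CPM in ESC, 3.66, 3.11 and 4.17 CPM in GC colonies and 4.83, 4.67 and 3.42 CPM in M colonies, where the groups overlapped. Blnk, the adaptor that links the receptor to its kinases, was 5.26 CPM in ESC and 5.39 to 9.16 CPM in the colonies. In the MHC class II pathway, H2-Ab1 was 4.96 CPM in ESC and 2.63 to 4.85 CPM in the colonies, while its partner chain H2-Aa stayed at 8 counts or fewer in every library. Cd74, the class II chaperone, ran from 2.54 to 4.47 CPM in the colonies around an ESC level of 2.65 CPM.

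The genes of the sort markers Cd38 and Fas were measurable in all 7 libraries. Cd38, low on the surface of sorted GC B cells, was 9.48 CPM in ESC, 7.96, 9.33 and 8.75 CPM in GC colonies and 10.8, 11.4 and 10.6 CPM in M colonies. Fas, high on those cells, was 0.938 CPM in ESC, 1.55, 1.37 and 1.69 CPM in GC colonies and 2.29, 1.59 and 1.77 CPM in M colonies. Every colony was above ESC for Fas, but the change of 0.86 ± 0.40 (SE) on the log2 scale did not pass the test (edgeR adjusted p = 0.178). In bulk RNA, fewer cells that express a gene and less RNA per cell cannot be told apart.

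Setting M against GC colonies asks whether the Myc-GFP sort left a different trace of B cell genes. The comparison used the quasi-likelihood test of edgeR over 18166 genes, with Benjamini-Hochberg adjustment and a threshold of 0.05. Of 28 members that passed the filter on low counts, 0 rose and 2 fell in M colonies: Cd37 and Icam1. Over all genes tested, 3.97% passed, with 1.7% higher and 2.27% lower, so 2 of 28 is near the background. DESeq2 also gave 0 members higher. At an unadjusted edgeR p under 0.05, 2 members were higher (Bach2 and Cd38) and 5 lower (Cd37, Icam1, Neil1, Ciita and Vpreb3), against 7.97% higher and 8.67% lower over all genes tested. The median log2 change over the 28 members was -0.11, and 0.0027 over all genes tested.

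Cd37 (ENSMUSG00000030798, GRCm38 chromosome 7 from 45233632 to 45239115) was 18.9 CPM in ESC, 15.3, 14.1 and 14.2 CPM in GC colonies and 7.24, 8.65 and 6.91 CPM in M colonies. The highest M colony was well below the lowest GC colony, and ESC was above all 6. Cd37 fell by 0.94 ± 0.13 (SE) in log2 units, from 14.5 ± 0.6 to 7.60 ± 0.93 CPM (SD, n = 3 each), with an edgeR adjusted p = 0.00164. The 2 nearest tested genes on each side (Dkkl1, Tead2, Slc6a16 and Trpm4) changed by -0.08 to -0.12 and did not pass. Tead2 overlaps Cd37 by 13 exon bases on the opposite strand.

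Icam1 (ENSMUSG00000037405, GRCm38 chromosome 9 from 21015985 to 21028817) was 97.9 CPM in ESC, 84.8, 84.7 and 91.1 CPM in GC colonies and 66.0, 65.1 and 59.8 CPM in M colonies. Groups did not overlap, and ESC was again highest. Icam1 fell by 0.45 ± 0.07 (SE) in log2 units, from 86.9 ± 3.7 to 63.6 ± 3.3 CPM (SD, n = 3 each), with an edgeR adjusted p = 0.00294. Leaving out M colonies 2 and 3, which leaves 1 M library, ended the call of Icam1 (edgeR adjusted p = 0.102) at a change of -0.40, while that of Cd37 held. Icam1 lies 2 tested genes from S1pr2, another member, which averaged 43.8 ± 3.6 (GC) and 42.6 ± 0.9 (M) CPM (SD, n = 3 each).

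The upstream sequence of both genes is shown because they were the members that passed in this comparison, together with that of Irf4, the gene that separated colonies from ESC. Each is the 250 bases before the RefSeq start on GRCm38.p6, 5′ to 3′ on the gene's strand. For Cd37 that stretch lies wholly inside the gene span given above, so it is upstream of the RefSeq start only. A check of the strand against the gene's transcripts found a match for Cd37 and Irf4 but not for Icam1. Capitals mark matches, on either strand, to GAGGAA, a core that Ets family factors such as PU.1 can bind, or to GGAAATTCC, a form of the site for NF-kappaB. The matches do not overlap. Over 32851 promoter windows of the same length, 23.3% held the first and 0.286% the second. The octamer ATGCAAAT, bound by Oct factors, was in 1.60% of the windows and in none of these 3. A match describes letters, not a binding site. Cd37 lies at chr7:45238840-45239089 (minus strand), Icam1 at chr9:21015690-21015939 (plus strand) and Irf4 at chr13:30748983-30749232 (plus strand).
Cd37: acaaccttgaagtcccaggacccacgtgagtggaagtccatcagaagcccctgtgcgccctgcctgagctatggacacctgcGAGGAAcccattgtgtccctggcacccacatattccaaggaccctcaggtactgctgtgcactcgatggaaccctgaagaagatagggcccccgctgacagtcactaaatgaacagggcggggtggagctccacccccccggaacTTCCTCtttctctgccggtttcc
Icam1: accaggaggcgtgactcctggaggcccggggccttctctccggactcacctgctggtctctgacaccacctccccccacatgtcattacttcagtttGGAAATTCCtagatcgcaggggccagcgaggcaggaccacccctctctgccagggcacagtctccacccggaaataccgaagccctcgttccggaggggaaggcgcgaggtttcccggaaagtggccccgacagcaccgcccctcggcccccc
Irf4: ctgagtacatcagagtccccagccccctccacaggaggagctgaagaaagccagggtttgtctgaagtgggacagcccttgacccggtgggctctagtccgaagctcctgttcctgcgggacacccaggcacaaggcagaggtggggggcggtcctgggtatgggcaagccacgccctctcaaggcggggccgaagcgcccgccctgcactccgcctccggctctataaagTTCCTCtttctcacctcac

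Cd37 held the Ets core 168 and 23 bases before its RefSeq start, Irf4 held it 19 bases before, and Icam1 held the NF-kappaB form 153 bases before. These windows had 8 (Cd37), 15 (Icam1) and 11 (Irf4) CpG dinucleotides, against a median of 6 over all windows.

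**Figure D2:**
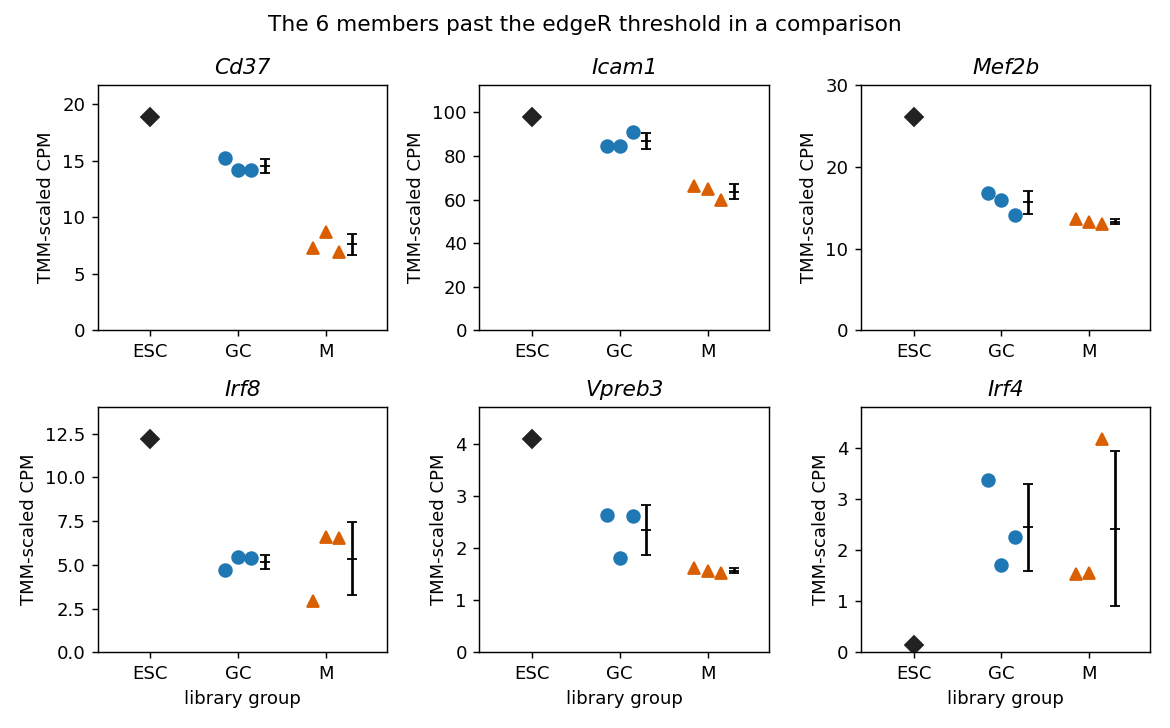
TMM-scaled CPM (y axes start at 0) of the 6 members that passed the edgeR threshold in either comparison, in ESC (1 library, diamond), GC colonies (circles) and M colonies (triangles); bars are mean ± SD (n = 3). ESC is above every colony for Cd37, Icam1, Mef2b, Irf8 and Vpreb3 and below every colony for Irf4, and M colonies lie below GC colonies for Cd37, Icam1, Mef2b and Vpreb3.

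Of the 28 tested members, 6 lay wholly lower in M colonies, Cd37 and Icam1 among them, and 2 wholly higher. Apart from Cd37 and Icam1, none of these passed. Over all genes tested, 12% lay wholly lower and 10.1% wholly higher. Neil1 was 11, 11.7 and 11.2 CPM in GC colonies and 8.80, 9.61 and 8.71 CPM in M colonies, a change of -0.32 ± 0.12 (SE) on the log2 scale (edgeR adjusted p = 0.193). Vpreb3, a chain tied to the pre-B cell receptor, was 2.64, 1.80 and 2.60 CPM and 1.62, 1.56 and 1.52 CPM (edgeR adjusted p = 0.282). Mef2b (edgeR adjusted p = 0.314) and Cd79b (edgeR adjusted p = 0.558) were the others. Bach2, a repressor that holds off plasma cell fate, was the strongest in the other direction, with 5.88, 6.00 and 6.78 CPM in GC colonies and 7.85, 9.79 and 7.61 CPM in M colonies (0.43 ± 0.16 SE on the log2 scale, edgeR adjusted p = 0.167). Cd38 was the other (0.33 ± 0.13 SE on the log2 scale, edgeR adjusted p = 0.205).

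Ciita, the switch for MHC class II transcription, changed by -1.51 ± 0.62 (SE) on the log2 scale and did not pass (edgeR adjusted p = 0.231). Without M colony 1 its change was -1.0. Its levels were 0.268 CPM in ESC, 0.555, 1.52 and 1.38 CPM in GC colonies and 0.0611, 0.479 and 0.665 CPM in M colonies. The groups overlapped through GC colony 1 and M colony 3. Without a filter on low counts it passed (edgeR adjusted p = 0.0300). Of the class II chains it controls, H2-Ab1 was 3.95 ± 0.55 and 3.99 ± 1.19 CPM, and H2-Eb1 0.711 ± 0.113 and 0.872 ± 0.335 CPM, in GC and M colonies (SD, n = 3 each), and neither passed. H2-Aa, too low to be tested, had 8, 2 and 2 counts in GC colonies and 0, 0 and 2 in M colonies, and Cd74 changed by -0.34 ± 0.22 (SE) on the log2 scale (edgeR adjusted p = 0.497). Bcl6 was 4.17 ± 0.85 and 4.78 ± 0.79 CPM, Cd40 2.91 ± 0.78 and 3.16 ± 0.65 CPM, and Irf4 2.45 ± 0.86 and 2.42 ± 1.52 CPM (SD, n = 3 each), with overlapping groups for each of these 3.

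A second comparison, of all 6 colonies with ESC, asks which B cell genes stood above the level of a pluripotent line with no B cell past. The fit of all 7 libraries tested 20502 genes and took its spread from the colonies, the lone ESC library being assumed to vary like them. Of 29 members tested, 1 rose (Irf4) and 5 fell (Mef2b, Cd37, Icam1, Irf8 and Vpreb3) in the colonies. Over all genes tested, 16.3% passed, 8.76% higher and 7.56% lower. The median log2 change was -0.09 over the 29 members and 0.015 over all genes tested.

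Irf4 (ENSMUSG00000021356, GRCm38 chromosome 13 from 30749226 to 30766976) encodes a factor that germinal center B cells need to form and that drives plasma cell fate at high level; macrophages also use it. It had 4 counts in ESC (0.134 CPM), 122, 56 and 72 counts in GC colonies (3.38, 1.71 and 2.26 CPM) and 50, 52 and 132 counts in M colonies (1.53, 1.56 and 4.18 CPM). Every colony was above ESC, and GC colony 1 and M colony 3 were the highest. The rise was 4.15 ± 0.85 (SE) in log2 units, at an edgeR adjusted p = 0.00467. The 484 counts summed over the colonies against the 4 in ESC, scaled by library totals, gave a ratio of 19.1. Its exact 95% counting interval, 7.42 to 70.4, takes counts as independent and leaves out the spread among colonies. That interval is too narrow if counts come as mates of read pairs, and every Irf4 count was even. Per length Irf4 remained low, at 0.50 ± 0.17 RPKM in GC and 0.494 ± 0.311 RPKM in M colonies (SD, n = 3 each). Its nearest tested neighbours Dusp22 and Exoc2 changed by 0.24 and -0.18 and did not pass.

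Other lineage genes were measured beside Irf4. The 8 primitive endoderm markers, of an extraembryonic lineage, summed to 113 CPM in ESC, 492, 381 and 449 CPM in GC colonies and 842, 584 and 1007 CPM in M colonies, and all 8 passed the edgeR threshold, higher in the colonies. GC colony 1 and M colony 3 were highest within their groups for both Irf4 and these markers, whereas M colony 1 had the lowest Irf4 level of the 6 and a marker sum of 842 CPM. Csf1r, the macrophage growth factor receptor, had 0 counts in ESC and 2.29 to 4.40 CPM in the colonies, while Itgam, another myeloid marker, was 0.503 CPM in ESC and 0.377 to 0.475 CPM in the colonies. Among myeloid markers 3 of 10 tested rose (Csf1r, Lyz2 and Fcgr3), and among fibroblast markers 9 of 17 rose, against 8.76% of all genes tested. The part of these cell types in the Irf4 result was not tested.

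Irf8, a factor shared by B cells and myeloid cells, went opposite to its relative Irf4. It was 12.2 CPM in ESC, 4.69, 5.43 and 5.40 CPM in GC colonies and 2.93, 6.59 and 6.53 CPM in M colonies. All 6 colonies were below ESC, with M colony 1 the lowest. Cox4i1, the nearest tested gene on 1 side at 62151 bases, fell by 0.50 on the log2 scale, and Foxf1 on the other side did not pass. Irf8 fell by 1.21 ± 0.29 (SE) in log2 units, at an edgeR adjusted p = 0.0126.

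Mef2b was 26.1 CPM in ESC, 16.8, 16.0 and 14.2 CPM in GC colonies and 13.6, 13.3 and 13.1 CPM in M colonies. It fell by 0.86 ± 0.14 (SE) in log2 units, at an edgeR adjusted p = 7.48e-04. Of its 4 nearest tested genes, Nr2c2ap (-0.96) and Tmem161a (-0.53) fell too, and Slc25a42 (-0.41) did not pass. Borcs8, which shares 62 exon bases with Mef2b, changed by 0.03. Mef2b and Irf8 both lie on chromosome 8, and the level of that chromosome as a whole was not tested.

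Vpreb3 was 4.09 CPM in ESC and 1.52 to 2.64 CPM in the colonies. It fell by 1.09 ± 0.29 (SE) on the log2 scale (edgeR adjusted p = 0.0214), but leaving out M colonies 2 and 3 ended that call (edgeR adjusted p = 0.0543) at a change of -1.06. Its neighbours on 1 side, Gm867 (-1.53) and Chchd10 (-0.92), fell as well, and Gm5134 (0.24) and Zfp280b (0.08) on the other side did not pass.

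Cd37 fell by 0.84 ± 0.16 (SE) on the log2 scale against ESC, with an edgeR adjusted p = 0.00226, and Icam1 fell by 0.40 ± 0.09 (SE), with an edgeR adjusted p = 0.00821. Tead2, next to Cd37, fell by 0.38 on the log2 scale too. This comparison and that of M with GC colonies share the colonies, so they are not independent.

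Of the 5 members that reached 1 CPM in a colony and not in ESC, the 4 besides Irf4 did not pass. Spib, an Ets factor close to PU.1, was 0.603 CPM in ESC, 1.72, 1.22 and 1.82 CPM in GC colonies and 0.550, 1.44 and 2.03 CPM in M colonies, so that M colony 1 lay below ESC (1.27 ± 0.62 SE on the log2 scale, edgeR adjusted p = 0.202). Fas and Ciita are given above. H2-Eb1 was 0.938 CPM in ESC, 0.832, 0.610 and 0.690 CPM in GC colonies and 0.489, 1.02 and 1.11 CPM in M colonies, which straddled its ESC level. Cd40, the receptor for the T cell help signal, was 1.71 CPM in ESC, 3.36, 3.35 and 2.01 CPM in GC colonies and 2.60, 3.02 and 3.87 CPM in M colonies. Each colony was above ESC, with a change of 0.83 ± 0.37 (SE) that did not pass (edgeR adjusted p = 0.161). Blnk was the other tested member above ESC in all 6 colonies (0.49 ± 0.24 SE on the log2 scale, edgeR adjusted p = 0.192).

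In all, 4 tested members lay above ESC and 11 below it in every colony, against 25.7% of all genes tested in each direction. Besides the 5 that passed, those below were Cd79b, Pax5, H2-Ab1, Ikzf1, S1pr2 and Neil1. Cd79b came nearest to the threshold (-0.88 ± 0.30 SE on the log2 scale, edgeR adjusted p = 0.0616). S1pr2 was 47.6 CPM in ESC and 39.8 to 46.6 CPM in the colonies, and Mybl1 was 30.5 CPM in ESC and 24.5 to 32.7 CPM in the colonies.

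**Figure D3:**
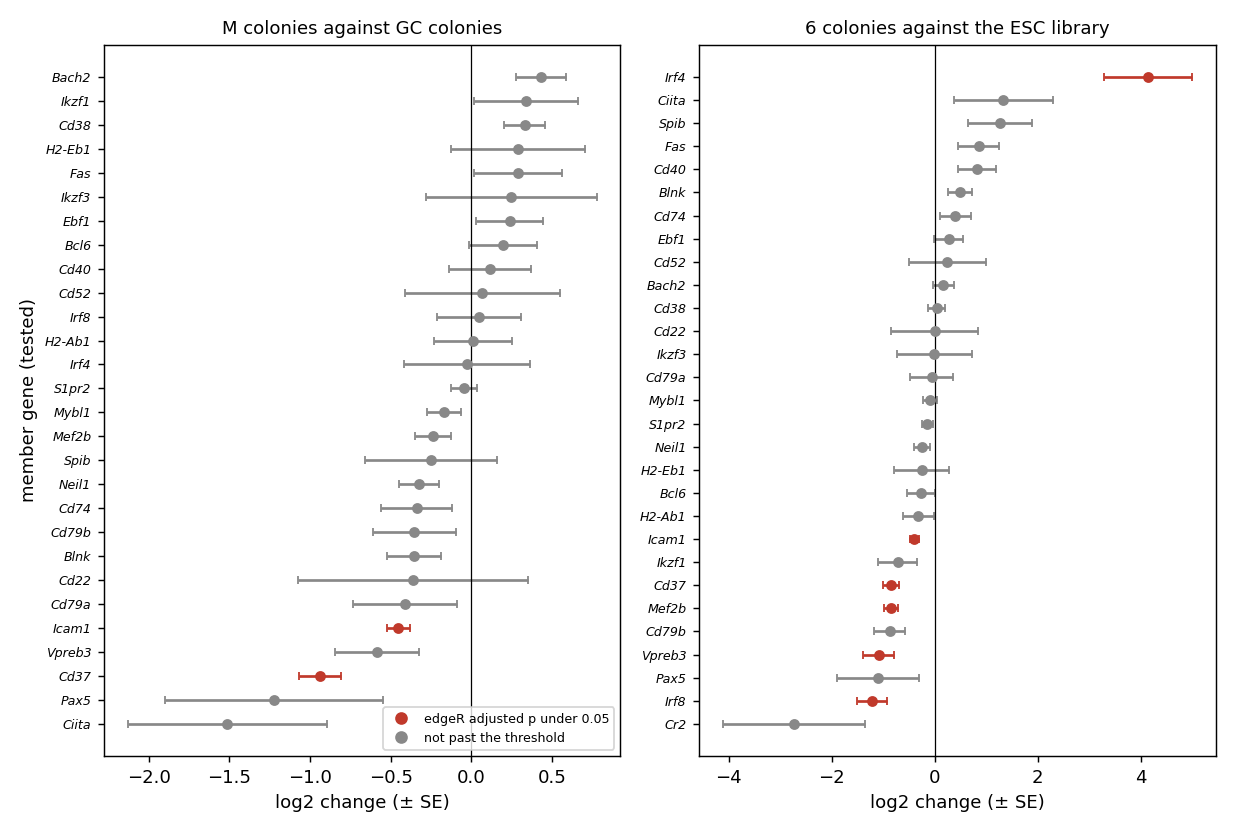
Log2 change ± SE of each tested member for M against GC colonies (left, 28 members) and for the 6 colonies against ESC (right, 29 members); red points passed the edgeR threshold of 0.05. On the left only Cd37 and Icam1 are red, and on the right Irf4 stands apart at 4.15 while the other 5 red points are negative.

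Genes of the same pathways that are not among the 52 were taken from 5 lists. Their counts stand against the shares over all genes tested, 1.7% higher and 2.27% lower in M against GC colonies and 8.76% higher and 7.56% lower against ESC. Of 15 tested receptor signalling genes, 0 rose and 2 fell in M against GC colonies. Inpp5d, a phosphatase that restrains receptor signals, fell from 109 ± 7 to 76.7 ± 4.9 CPM (SD, n = 3 each; edgeR adjusted p = 0.00198), and Ptpn6, another such phosphatase, from 32.0 ± 2.6 to 24.4 ± 1.8 CPM (edgeR adjusted p = 0.0406). Inpp5d was highest in ESC, at 142 CPM, as was Ptpn6 at 42.8 CPM. Against ESC, 2 of 16 rose (Plcg2 and Pik3ap1) and 4 fell (Cd81, Vav1, Inpp5d and Ptpn6).

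The list of 12 other factors of the B lineage also holds Cebpa, a myeloid factor. Of these 12, Runx1 and Ets1 rose in M colonies and 0 fell. Runx1 was 5.6 CPM in ESC, 16.1, 13.3 and 14.6 CPM in GC colonies and 24.3, 19.6 and 23.5 CPM in M colonies (edgeR adjusted p = 0.0120). Ets1 was 6.90 CPM in ESC, 14.5, 17.9 and 20.02 CPM in GC colonies and 23.1, 25.0 and 29.4 CPM in M colonies (edgeR adjusted p = 0.0322). Both also rose in the colonies against ESC, as did Rel. Spi1, which encodes PU.1, was 1.34 CPM in ESC and 0.489 to 0.999 CPM in the colonies.

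Of 12 tested germinal center genes outside the 52, Efnb1 and Basp1 rose in M colonies and 0 fell. Efnb1, a ligand of Eph receptors, went from 13.7 ± 1.0 to 20.9 ± 0.9 CPM (SD, n = 3 each; edgeR adjusted p = 0.00630), and Basp1, a membrane protein, from 108 ± 10 to 141 ± 12 CPM (edgeR adjusted p = 0.0251). Against ESC, Efnb1 rose while Ung and Gna13 fell. Of 3 tested plasma cell genes, 0 passed in M against GC colonies, and against ESC 1 of 4 fell (Prdm1).

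Of 11 tested genes that respond to T cell help, 1 rose in M colonies (Egr2, a zinc finger factor, from 8.97 ± 1.25 to 13.5 ± 0.7 CPM; SD, n = 3 each; edgeR adjusted p = 0.0285) and 0 fell. Myc, the gene behind the reporter, was 7.14 CPM in ESC, 27.6, 27.7 and 22.0 CPM in GC colonies and 33.4, 31.9 and 35.3 CPM in M colonies. The M and GC colonies did not overlap, but the difference of 0.38 on the log2 scale did not pass (edgeR adjusted p = 0.0671). Against ESC, Myc rose by 2.04 on the log2 scale (edgeR adjusted p = 9.44e-06), and over that list 3 of 12 rose (Myc, Ccnd2 and Tnfaip3) and 3 fell (Ccnd3, Egr1 and Egr2). The labels do not name the genes under Dox control, and a count for Myc could include an introduced copy, which was not tested.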

How the data were processed

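RNA-seq of 7 libraries was read from 1 deposited table in which the authors give raw, whole-number counts for each Ensembl gene. STAR 2.7.10a, featureCounts 2.0.6 and DESeq2 were used with mm10 (GRCm38), per the submitters' processing notes; the annotation release and strand setting are not given in the sources used here. The labels disagree on whether libraries were stranded, so reads of overlapping antisense genes cannot be told apart. Names, positions and merged exon lengths came from GENCODE M21 (GRCm38); 54723 of 54838 gene IDs matched a symbol. Groups came from sample titles. After filterByExpr and TMM scaling, the quasi-likelihood test of edgeR 4.0.16 (R 4.3.3), two-sided, was run over all genes at an adjusted p of 0.05. SEs were derived from each change and its F statistic. No value was imputed and no library dropped in the main fits. The fits were tested on simulated counts. No library pair agreed within sampling noise (lowest chi-square per gene 5.28).

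The 52 members, role lists, pathway lists and marker lists were chosen with earlier results of these data known. Members called in either comparison, defining B cell genes, sort markers, T cell help proteins and members at 1 CPM in a colony only are given library by library; pathway genes are those called in M against GC colonies plus Myc, with a few others named beside them after their values were seen. Some genes of these lists are not reported here. The promoters shown and the Ets and NF-kappaB motifs were chosen after values and sequences were seen. The labels do not say that colony numbers pair the samples. Correlations of same-numbered GC and M colonies were 0.057, 0.057 and 0.13. Those of differently numbered colonies were lower, from -0.10 to 0.044, so whether the numbers pair colonies was not settled. Alternatives were DESeq2 1.42.0, RLE scaling, other filters, a block by colony number, other level thresholds and leaving out colonies. RefSeq promoter windows were at hand for 35 of the 52 members (67.3%, under the 80% required), so the planned comparison of promoter composition between expression classes is void.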

Additional observations from a re-analysis of the deposited data

How the results depend on the processing

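Cd37 and Icam1 stayed the members lower in M colonies under DESeq2, RLE scaling, a filter of 1 CPM in 3 libraries and each of the 6 leave-outs (2 members in each). With the colony number as a replicate block, 2 members and 963 genes passed. With no filter on low counts 4 members passed (Ciita and Cr2 were added), and without M colonies 2 and 3, which leaves 1 M library, 1 passed (Cd37). The number of all genes called was 721 in the main fit, 1110 with DESeq2, 1318 with no filter, 373 without M colonies 2 and 3, and 244 (without GC colony 2) to 814 (without GC colony 3) over the leave-outs, with 270 without M colony 3 and 412 without GC colony 1. The log2 change of Irf4 between M and GC colonies, never past the threshold, ranged over the leave-outs from -0.67 to 0.29 and was positive when GC colony 1 (0.29), or M colony 1 (0.22) or 2 (0.21), was left out. Against ESC, 6 members passed under each alternative except 7 without GC colony 3 (Cd79b was added) and 5 without M colonies 2 and 3 (Vpreb3 was lost); over the leave-outs 2575 to 3718 genes passed, against 3344. ESC carries no colony number, so the block could not be used there. Counting from 0.5 CPM, 3 members (Irf4, Ciita and the former trace member Cd22) reached that level in a colony only, in place of 5. With silence set at 6 counts 20 members were silent and 8 were traces, and at 0 counts 7 were silent. Depth limits the 28 silent and trace members, most of which lie near the floor of 3 counts.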

Other observations

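Immunoglobulin segments beyond the constant genes were counted by annotated gene type. Over 264 segments, ESC had 19 counts, GC colonies 1 to 3 had 82, 62 and 40, and M colonies 1 to 3 had 67, 62 and 35, so every colony was above ESC and the colony groups overlapped. Variable (V) segments held most of these, with 17 counts in ESC and 31 to 67 in the colonies. Ighv3-3 (GRCm38 chromosome 12 from 114196439 to 114196875) had 0 counts in ESC, 25, 20 and 8 in GC colonies and 23, 18 and 8 in M colonies. Iglv3 had 10 counts in ESC and 3 to 27 in the colonies. These segments were picked after their values were seen, belong to families of similar copies whose reads may be shared, and were not tested.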
